A study of Mus musculus with 2 samples.

Results

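The 10 genes described here encode the hypoxia-inducible factor (HIF) subunits and the enzymes and partners that set HIF activity by oxygen: *Epas1* (HIF2α), *Hif1a* (HIF1α), *Hif3a*, *Arnt* (HIF1β), *Egln1*, *Egln2*, *Egln3*, *Vhl*, *Hif1an* and *Cited2*. They were chosen by symbol from the 31053 genes in the count matrices, and all 10 are listed there. In the endothelial cell (EC)-like cells, 8 of the 10 had at least 50 unique molecular identifiers (UMIs, each counting 1 captured RNA molecule). *Hif3a* and *Egln3* did not.

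The cells came from lungs of wild-type C57/B6 mice aged 2 to 4 months, kept either in normoxia or in hypoxia for 3 weeks, an exposure that causes pulmonary hypertension in mice. Per the study's methods the mice in hypoxia were male. Lungs were dissociated, and cells carrying CD45 (leukocytes) or CD326 (epithelium) were depleted on magnetic beads before 10x Genomics droplet capture. The study used several wild-type mice, but each condition has 1 library, and whether the mice were pooled in it is not stated in the sources used here. Condition and library therefore cannot be told apart, cells are not replicates, and no test between conditions was possible. The 95% intervals given in parentheses cover counting error only.

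HIF is a pair of proteins, an oxygen-labile α subunit and the stable partner ARNT. In normal oxygen the prolyl hydroxylases EGLN1 to EGLN3 mark the α subunit for VHL, the recognition part of a ubiquitin ligase, which sends it to the proteasome. The asparaginyl hydroxylase HIF1AN blocks the α subunit's contact with the coactivators CBP and p300, and CITED2 competes for that contact. This control acts largely on protein, which was not measured here, whereas RNA levels set how much of each component can be made. In the lung, HIF2α is abundant in endothelium, and *Egln1* and *Cited2* are known targets that HIF can itself induce.

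The normoxia matrix held 2223 cell barcodes and the hypoxia matrix 809, of which 1348 and 689 remained after filtering, with a median of 3453 and 2224 UMIs. The limit of 5% mitochondrial counts was exceeded by 835 of the 2223 normoxia barcodes and 107 of the 809 hypoxia barcodes. This limit therefore removed a larger share of the normoxia library. Of the barcodes, 1 was shared between the libraries and was not among the cells kept. EC-like cells numbered 894 in normoxia and 588 in hypoxia, or 66.3% and 85.3% of the cells kept. They split into general capillary-like cells (661 and 418), aerocyte-like cells of the alveolar wall (122 and 62), arterial-like cells (22 and 13), *Vwf*-high cells (53 and 20) and EC-like cells without a subtype (36 and 75). The markers given next were among those that set the subtype names, so they describe the groups and are no independent check. The aerocyte marker *Car4* stood at 2810 UMIs per 1000000 (CPM) in aerocyte-like cells in normoxia, the general capillary marker *Gpihbp1* at 1337 CPM in general capillary-like cells, the arterial marker *Gja5* at 293 CPM in arterial-like cells, and *Vwf* at 3046 CPM in *Vwf*-high cells. *Gpihbp1* was not confined to general capillary-like cells. Arterial-like cells had 1140 CPM of it in normoxia and 1443 CPM in hypoxia, where general capillary-like cells had 1157 CPM. *Gja5* stood at 120 CPM in arterial-like cells in hypoxia. A second naming gave each single EC-like cell the subtype with the largest share of its markers detected. It named alike 644 of 661 normoxia and 393 of 418 hypoxia general capillary-like cells, and 119 of 122 and 58 of 62 aerocyte-like cells. Agreement was lower for *Vwf*-high (30 of 53 and 4 of 20) and arterial-like cells (4 of 22 and 1 of 13). General capillary-like cells of the 2 libraries lay mostly in different clusters, 1 of which held 191 of the 418 hypoxia cells and 5 normoxia cells. Hypoxia left too few cells of most other classes to compare (3 pericyte-like, 5 fibroblast-like, 0 smooth muscle cell (SMC)-like), so their levels are given for normoxia only. Another 195 and 64 cells stayed unnamed, in 2 shallow clusters, 1 of which (103 and 34 cells) held 5 of the 8 endothelial markers and had 5358 and 2817 CPM of *Epas1* (ratio 0.526, 0.412 to 0.664).

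The members lie on 8 chromosomes in the mm10 build. *Epas1* is on chromosome 17 (86753700 to 86833410, plus strand), *Hif1a* on chromosome 12 (73901375 to 73947530, plus strand), *Egln1* on chromosome 8 (124908587 to 124949324, minus strand) and *Cited2* on chromosome 10 (17723218 to 17725674, plus strand). HIF binds DNA at a short core, ACGTG or GCGTG. The bases upstream of *Egln1* and *Cited2* are shown because these members are known HIF targets and had unlike values in hypoxia (described further on). The core is in capitals, and both runs end at the base before the annotated gene (RefSeq sequence, GRCm38.p6, read along the gene's strand). The *Egln1* run is chr8:124949325-124949504 (minus strand) and has 1 core, and the *Cited2* run is chr10:17722978-17723217 (plus strand), where the palindrome CACGTG reads as ACGTG on both strands:
Egln1: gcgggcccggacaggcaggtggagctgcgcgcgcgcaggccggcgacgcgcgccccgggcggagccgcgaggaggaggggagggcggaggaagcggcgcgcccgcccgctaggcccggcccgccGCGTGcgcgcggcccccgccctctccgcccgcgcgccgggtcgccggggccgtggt
Cited2: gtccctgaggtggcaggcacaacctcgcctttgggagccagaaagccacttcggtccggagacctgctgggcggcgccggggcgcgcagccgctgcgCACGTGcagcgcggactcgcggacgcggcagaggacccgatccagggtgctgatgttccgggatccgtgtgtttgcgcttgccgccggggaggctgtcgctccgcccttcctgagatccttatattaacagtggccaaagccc

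Over the 250 bases before the gene start, 7 of the 9 members with an entry had the core on either strand, against 38.6% of 27025 promoters. *Hif1an* and *Vhl* did not have it, and *Epas1* had no entry. The letters alone do not show binding.

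*Epas1* encodes the oxygen-labile subunit HIF2α and was by far the most counted member, with 10765 UMIs in EC-like cells in normoxia and 4405 in hypoxia. Within the endothelium its level differed by subtype. In normoxia, general capillary-like cells, the main cells of the capillary network, had 3325 CPM (3252 to 3399). *Vwf*-high cells had 2513 CPM (2339 to 2696), arterial-like cells 2393 CPM (2127 to 2683) and aerocyte-like cells 2103 CPM (1997 to 2213). The general capillary level exceeded that of aerocytes by 1.58 times (1.5 to 1.67) and that of *Vwf*-high cells by 1.32 times (1.23 to 1.43). Arterial-like and *Vwf*-high cells, neighbours in this order, did not differ beyond counting error (ratio 0.952, 0.83 to 1.09).

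In hypoxia general capillary-like cells no longer stood highest, while the other named subtypes kept their order by value. The *Epas1* level of general capillary-like cells was 2067 CPM (1995 to 2142), that of *Vwf*-high cells 2233 CPM (1933 to 2567), that of arterial-like cells 2044 CPM (1667 to 2482) and that of aerocyte-like cells 1919 CPM (1774 to 2072). General capillary-like and aerocyte-like cells now differed by a ratio of 1.08 (0.99 to 1.17), and the intervals of the 4 subtypes overlapped. The aerocyte to *Vwf*-high ratio was 0.837 (0.767 to 0.914) in normoxia and 0.859 (0.732 to 1.01) in hypoxia, where fewer UMIs were counted.

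**Figure D1:**
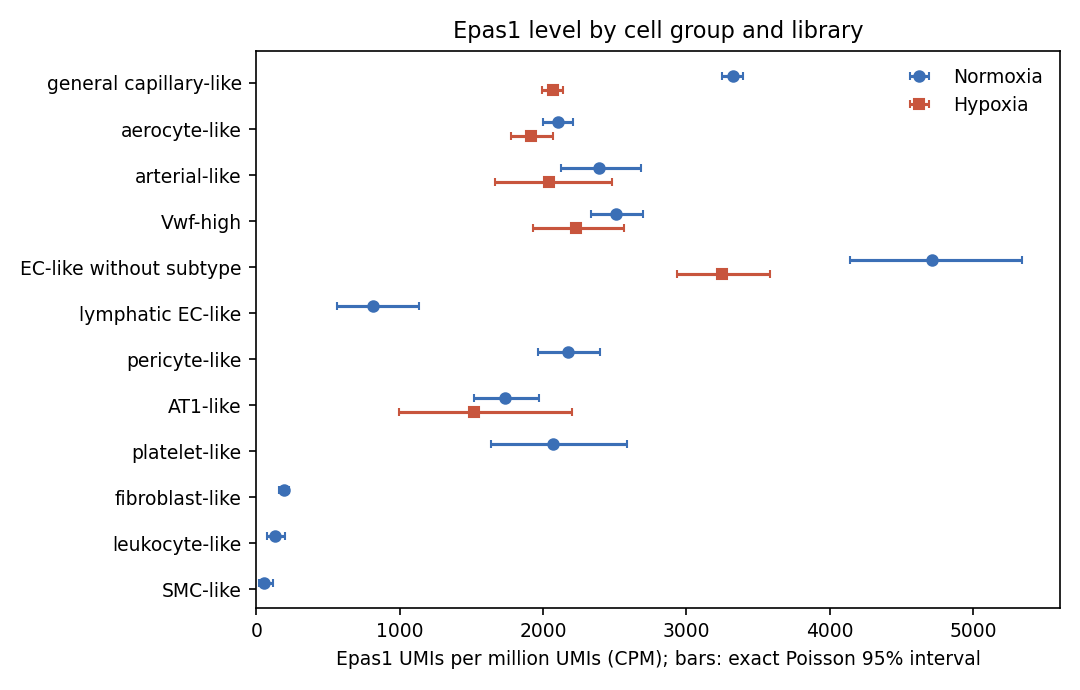
*Epas1* CPM (axis from 0) by cell group in the normoxia and the hypoxia library. Values are summed counts over the cells of a group, and lines are 95% counting intervals. General capillary-like cells had the highest level of the 4 named endothelial subtypes in normoxia (3325 CPM), while in hypoxia those 4 subtypes lay between 1919 and 2233 CPM.

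The lower pooled endothelial *Epas1* level in hypoxia was thus carried unequally by the subtypes. The hypoxia to normoxia ratio was 0.622 (0.596 to 0.648) in general capillary-like cells, 0.854 (0.675 to 1.07) in arterial-like cells, 0.889 (0.756 to 1.04) in *Vwf*-high cells and 0.912 (0.831 to 1.00) in aerocyte-like cells. The last 3 intervals include 1, but with up to 10% mitochondrial UMIs allowed they did not: aerocyte-like cells were then at 0.888 (0.813 to 0.969), *Vwf*-high cells at 0.859 (0.737 to 0.996) and arterial-like cells at 0.764 (0.599 to 0.965). The arterial value also left 1 at a coarser clustering (0.705, 0.567 to 0.869), where it overlapped that of general capillary-like cells (0.608, 0.582 to 0.636). At the settings used here, general capillary-like cells differed from the other named subtypes by more than counting error: their ratio was 0.682 times that of aerocytes (0.616 to 0.754), 0.728 times that of arterial-like cells (0.579 to 0.915) and 0.700 times that of *Vwf*-high cells (0.595 to 0.822). EC-like cells without a subtype, which were shallow or cycling, had a ratio of 0.689 (0.586 to 0.812), not distinguishable from general capillary-like cells (0.902 times, 0.765 to 1.06). With the hypoxia cells weighted to the subtype make-up of normoxia, the ratio over all EC-like cells was 0.689, close to the 0.705 (0.681 to 0.731) without weighting.

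The general capillary value was compared within strata of the cells, and was nearer to 1 in the shallow ones. In cells of at least 4000 UMIs the *Epas1* ratio was 0.598 (0.568 to 0.630), in those of 2000 to 4000 UMIs 0.592 (0.541 to 0.647) and in shallower cells 0.814 (0.715 to 0.926). Of the 10 general capillary clusters, each with cells of both libraries, 9 had a ratio between 0.261 and 0.672. Most held few cells of 1 library, and they are not independent repeats. The value of 0.261 rests on 2 hypoxia cells. Clusters with 1, 3, 6 and 6 hypoxia cells were at 0.344 (0.0409 to 1.29), 0.520, 0.351 and 0.581. A cluster with 5 normoxia and 191 hypoxia cells was at 0.578 (0.462 to 0.732). The clusters best filled from both libraries were at 0.578 (0.488 to 0.685) with 57 normoxia and 74 hypoxia cells, at 0.648 (0.556 to 0.752) with 109 and 21, and at 0.672 (0.510 to 0.898) with 17 and 110. The tenth, with 49 and 4 cells, was at 1.00 (0.491 to 1.85). The aerocyte-like cells were less uniform. Their main cluster (99 and 39 cells) had a ratio of 0.925 (0.839 to 1.02), and their shallow one (23 and 23 cells, led by the airway transcript *Scgb1a1*) 0.622 (0.446 to 0.863). The sum of 5 airway markers, *Scgb1a1* included, stood at 1145 and 10650.5 CPM in the aerocyte-like cells of normoxia and hypoxia, against 382 and 535 CPM in general capillary-like cells. In the latter, summed pericyte markers stood at 65.1 and 42.6 CPM and summed AT1 markers at 1388 and 1696 CPM. Their part in the *Epas1* values was not tested.

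The lower *Epas1* level was spread over the general capillary-like cells of hypoxia rather than held by a few. As given above, cells of the libraries lay mostly in different clusters, so these distributions do not follow a single population. The cluster with 191 hypoxia and 5 normoxia cells had *Ntrk2* as its top gene. With each cell thinned to 1000 UMIs (599 normoxia and 346 hypoxia cells were deep enough), the mean was 3.13 *Epas1* UMIs per cell in normoxia and 2.11 in hypoxia, and the median 3 and 2. Cells with at least 1 *Epas1* UMI made up 94.7% (92.5 to 96.3) and 84.7% (80.4 to 88.3), and before thinning 98.8% and 95.2%. In leukocyte-like cells, where the gene should be low, 1 of 18 thinned cells had a UMI. In aerocyte-like cells the thinned mean was 2.25 UMIs in 113 normoxia cells and 2.00 in 49 hypoxia cells.

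**Figure D2:**
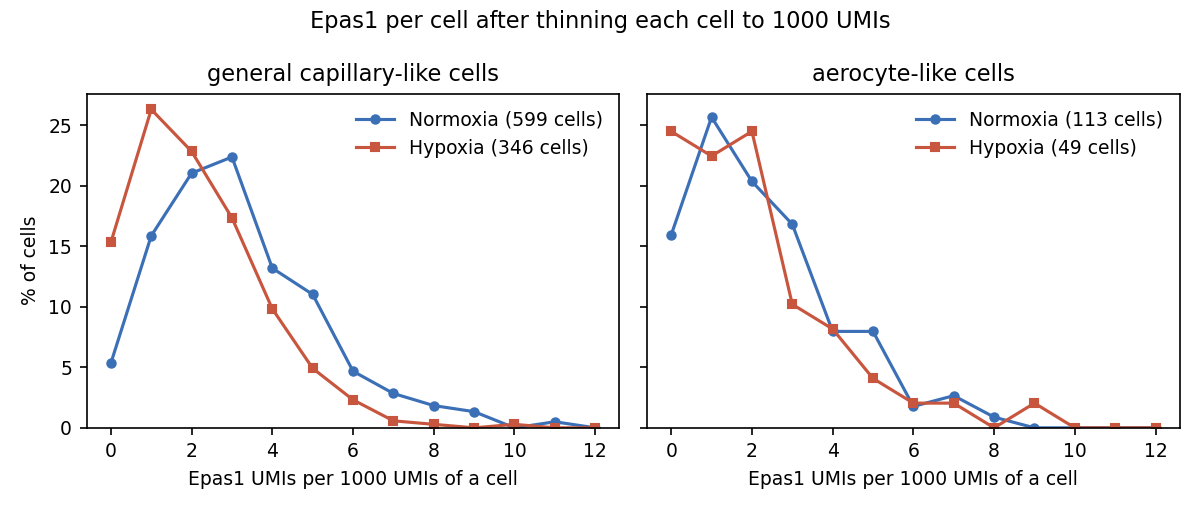
Share of cells (y axis, percent) by number of *Epas1* UMIs (x axis) after thinning each cell to 1000 UMIs, for general capillary-like and aerocyte-like cells of each library. In general capillary-like cells 0 UMIs were drawn in 5.34% of normoxia and 15.3% of hypoxia cells, and the whole distribution lay lower in hypoxia.

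Outside these endothelial subtypes *Epas1* ranged more widely. In normoxia, pericyte-like cells (44), the mural cells of capillaries, had a pooled level of 2176 CPM (1967 to 2401), which did not differ from aerocytes beyond counting error. Their clusters lay apart, at 3125 CPM in the shallower (22 normoxia cells) and 1686 CPM in the deeper (22 normoxia cells). Alveolar type 1 (AT1)-like cells, the flat epithelium facing the capillaries, had 1733 CPM (1516 to 1973) in 49 cells in normoxia and 1516 CPM (999 to 2205) in 12 cells in hypoxia. Fibroblast-like cells had 193 CPM (162 to 228), leukocyte-like cells 128 CPM (75.9 to 202) and SMC-like cells, led by *Hhip*, *Aspn* and *Lum*, 50.6 CPM (16.4 to 118). Platelet-like cells (18) had 2073 CPM (1638 to 2587) and lymphatic EC-like cells (11) 813 CPM (563 to 1136), with 1 of the latter holding 64.7% of the UMIs. The low classes held a small part of the general capillary level, 0.0579 times in fibroblast-like and 0.0152 times in SMC-like cells.

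The pan-endothelial *Cdh5*, at 2177 CPM in EC-like cells in normoxia, was also counted in the non-endothelial classes. It stood at 1116 CPM in platelet-like, 729 CPM in pericyte-like, 575 CPM in AT1-like and 21.2 CPM in fibroblast-like cells. Its share in their *Epas1* values was not tested. In normoxia, *Epas1* UMIs per *Cdh5* UMI were 1.86 in platelet-like, 2.98 in pericyte-like and 3.01 in AT1-like cells. The values were 1.38 in EC-like cells, 3.95 in EC-like cells without a subtype and 5.13 in unnamed cells.

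*Hif1a*, the more widely expressed α subunit, was counted far less often (208 UMIs in EC-like cells in normoxia, 166 in hypoxia) and had hypoxia to normoxia ratios above 1 in the 4 named endothelial subtypes. Its level in general capillary-like cells was 62.6 CPM (53.0 to 73.4) in normoxia and 82.5 CPM (68.5 to 98.5) in hypoxia, a ratio of 1.32 (1.03 to 1.68). In *Vwf*-high cells it was 58.5 and 147 CPM on 18 and 13 UMIs, a ratio of 2.51 (1.13 to 5.41). The aerocyte values of 34.1 and 58.8 CPM gave 1.73 (0.904 to 3.26), and arterial-like cells, with 12 and 5 UMIs, gave 1.03 (0.283 to 3.13). Among these subtypes the interval excludes 1 in general capillary-like and *Vwf*-high cells, and the ratios of those groups did not differ from each other beyond counting error (0.526 times, 0.248 to 1.12). Neither call was stable. Of the alternative settings that give an interval, it included 1 in 7 of 13 for general capillary-like cells (among them at least 1000 UMIs per cell, 0.981 to 1.64) and in 5 of 12 for *Vwf*-high cells (0.878 to 4.6 at that setting), whereas aerocyte-like cells reached 2.07 (1.2 to 3.6) with up to 6000 genes allowed. AT1-like cells, with 8 and 6 UMIs, had 60.6 and 337 CPM (ratio 5.56, 1.59 to 18.3). EC-like cells without a subtype, with 4 and 6 UMIs, had a ratio of 0.644 (0.153 to 3.10).

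*Hif1a* varied less between classes in normoxia than *Epas1* did. It stood at 71.2 CPM in pericyte-like, 71.1 CPM in leukocyte-like, 50.6 CPM in SMC-like and 46.7 CPM in fibroblast-like cells. These values rest on 13, 10, 5 and 33 UMIs. Their intervals all include the general capillary level, but counts so low cannot show that the classes were alike. The aerocyte level was lower, with general capillary-like cells at 1.84 times (1.19 to 2.96). Aerocyte-like cells had 0.349 times the arterial level (0.168 to 0.765). In hypoxia the general capillary to aerocyte ratio was 1.40 (0.87 to 2.38).

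The balance of the α subunits therefore differed by cell and by library. UMIs count captured molecules and are not divided by transcript length, so the following ratio is used to compare cells and not the genes with each other. *Epas1* UMIs per *Hif1a* UMI were 53.1 (45.2 to 62.9) in general capillary-like cells in normoxia and 25.1 (20.9 to 30.3) in hypoxia. Aerocyte-like cells had 61.8 and 32.7, *Vwf*-high cells 42.9 and 15.2, and arterial-like cells 24.5 and 20.4. In normoxia the ratio was 30.5 (17.7 to 57.9) in pericyte-like, 28.6 (14.3 to 67.1) in AT1-like, 4.12 in fibroblast-like, 1.80 in leukocyte-like and 1.00 in SMC-like cells. The 4 named endothelial subtypes had lower values in hypoxia. EC-like cells without a subtype did not, at 61.25 and 65.5 on 4 and 6 *Hif1a* UMIs. In general capillary-like cells the intervals of normoxia and hypoxia did not overlap. They overlapped in *Vwf*-high (27.0 to 72.8 and 8.70 to 29.1), aerocyte-like (41.3 to 96.7 and 21.0 to 53.8) and arterial-like cells. Such an overlap does not show that the ratios were equal. Pericyte-like and AT1-like cells lay within the range of the endothelial subtypes.

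*Hif3a*, whose shorter products can restrain HIF, was represented by 3 UMIs in all cells, each in a different fibroblast-like cell of normoxia. In EC-like cells it had 0 UMIs, which allows up to 0.837 CPM in normoxia and 1.44 CPM in hypoxia. At this depth its endothelial level was not detectable.

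*Arnt*, the stable partner that every α subunit needs, had 148 UMIs in EC-like cells in normoxia and 100 in hypoxia (41.3 and 48.1 CPM, ratio 1.16, 0.895 to 1.51). The general capillary values of 45.5 and 56.1 CPM gave 1.23 (0.916 to 1.66). Aerocyte-like cells went the other way, from 21 UMIs to 3 (29.8 and 8.81 CPM, ratio 0.296, 0.0565 to 0.991). The ratio in general capillary-like cells was 4.17 times that in aerocytes (1.20 to 14.5), a difference that rests on the 3 UMIs of the hypoxia aerocytes, and the aerocyte interval included 1 in 7 of 13 alternative settings. Fibroblast-like cells had 63.7 CPM (46.5 to 85.3) in normoxia.

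The prolyl hydroxylases were represented by *Egln1*, the main oxygen sensor for HIF, and *Egln2*. *Egln1* had 219 UMIs in EC-like cells in normoxia and 166 in hypoxia (61.1 and 79.8 CPM, ratio 1.31, 1.06 to 1.61), with an interval that included 1 in 2 of 12 alternative settings. General capillary-like cells, at 58.0 and 64.2 CPM, had a ratio of 1.11 (0.844 to 1.45), which includes both 1 and the pooled value. Aerocyte-like cells had 85.1 and 115 CPM (1.35, 0.875 to 2.05), and *Vwf*-high cells 39.0 and 124 CPM on 12 and 11 UMIs (3.18, 1.27 to 7.87), where 1 hypoxia cell held 36.4% of the UMIs. The *Vwf*-high ratio was 7.94 (0.964 to 365) in cells under 10000 CPM of the immediate-early genes described further on, and the aerocyte ratio was 0.843 as a mean over cells and 1.66 (1.14 to 2.43) with up to 6000 genes allowed. EC-like cells without a subtype had 1 UMI in normoxia and 19 in hypoxia. The ratio of general capillary-like cells was 0.348 times that of *Vwf*-high cells (0.148 to 0.822), which rests on those 11 UMIs.

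*Egln1* had the opposite order of the capillary subtypes to *Epas1*. General capillary-like cells had 0.681 times the aerocyte level in normoxia (0.50 to 0.938) and 0.560 times in hypoxia (0.382 to 0.836). *Egln2*, a second prolyl hydroxylase, stood at 48.8 and 49.3 CPM in general capillary-like cells (117 and 73 UMIs, ratio 1.01, 0.744 to 1.37) and at 59.6 and 67.6 CPM in aerocytes (1.13, 0.651 to 1.93), with no difference beyond counting error between subtypes or libraries. *Egln3* had 2 UMIs, both in SMC-like cells of normoxia, and 0 in EC-like cells.

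*Vhl*, which recognises hydroxylated HIFα, and *Hif1an* were sparse. *Hif1an* had 54 UMIs in EC-like cells in normoxia and 41 in hypoxia (15.1 and 19.7 CPM, ratio 1.31, 0.850 to 2.00). *Vhl* had 41 and 34 UMIs (11.4 and 16.3 CPM, ratio 1.43, 0.880 to 2.31). Both intervals include 1, and each value within a subtype rests on 36 UMIs or fewer.

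**Figure D3:**
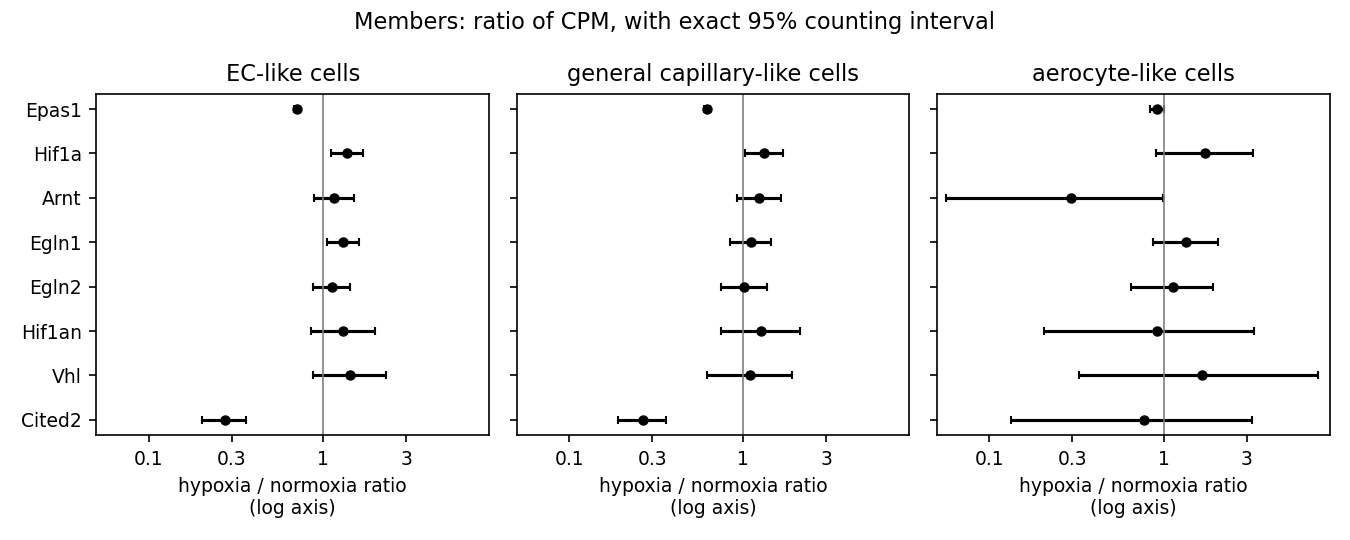
Hypoxia to normoxia ratio (x axis, log scale, 1 marked) of each member with enough UMIs in EC-like cells and in endothelial subtypes. Points are ratios of CPM and lines 95% counting intervals. *Epas1* lies below 1 with the narrowest intervals, *Cited2* in general capillary-like cells is at 0.265, and the intervals of *Hif1an*, *Vhl* and *Egln2* cross 1.

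*Cited2*, the competitor for CBP and p300, was the member with the greatest distance between libraries. In EC-like cells it had 347 UMIs in normoxia and 55 in hypoxia (96.8 and 26.4 CPM, ratio 0.273, 0.202 to 0.364). General capillary-like cells gave 294 and 48 of these, at 123 CPM (109 to 137) and 32.4 CPM (23.9 to 43.0), a ratio of 0.265 (0.191 to 0.360). Aerocyte-like cells had little of it in either library (11.4 and 8.81 CPM on 8 and 3 UMIs), and the general capillary level in normoxia was 10.8 times theirs (5.41 to 25.3). *Vwf*-high cells had 26 and 3 UMIs (ratio 0.400, 0.0776 to 1.31) and arterial-like cells 14 and 1. The highest normoxia levels lay outside the endothelium, at 372 CPM (329 to 420) in fibroblast-like, 277 CPM in leukocyte-like (1 cell held 48.7% of the UMIs) and 273 CPM (180 to 398) in SMC-like cells.

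In general capillary-like cells the *Cited2* level moved with the immediate-early genes, such as *Fos*, *Junb*, *Egr1* and *Atf3*. These genes are switched on within minutes of stimulation and also by tissue dissociation. The summed level of 16 such genes in general capillary-like cells came to 25959 CPM in the normoxia library against 8379 CPM in the other, and 60.5% and 17.2% of these cells exceeded 10000 CPM. In cells under 5000 CPM of these genes, *Cited2* was at 14.1 CPM in normoxia and 19.9 CPM in hypoxia (7 and 17 UMIs, ratio 1.42, 0.558 to 4.04). Between 10000 and 30000 CPM it was at 120 and 61.3 CPM (ratio 0.509, 0.25 to 0.954), and above 30000 CPM at 215 and 148 CPM (ratio 0.687, 0.369 to 1.18). Over all general capillary-like cells under 10000 CPM the ratio was 1.43 (0.665 to 3.27). The interval of that ratio does not reach the 0.265 of all general capillary-like cells, but those cells held few *Cited2* UMIs. The lower *Cited2* level of the hypoxia library was seen between 10000 and 30000 CPM and not among cells with a low immediate-early sum. The immediate-early genes were chosen after seeing the data, and the cause of the *Cited2* difference was not tested.

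*Epas1* did not behave in this way. Across the same 4 ranges of the immediate-early sum, its level in general capillary-like cells lay between 3252 and 3510 CPM in normoxia and between 1761 and 2125 CPM in hypoxia. Its ratio was 0.630 (0.589 to 0.674) in cells under 5000 CPM and 0.617 (0.530 to 0.714) in cells above 30000 CPM.

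**Figure D4:**
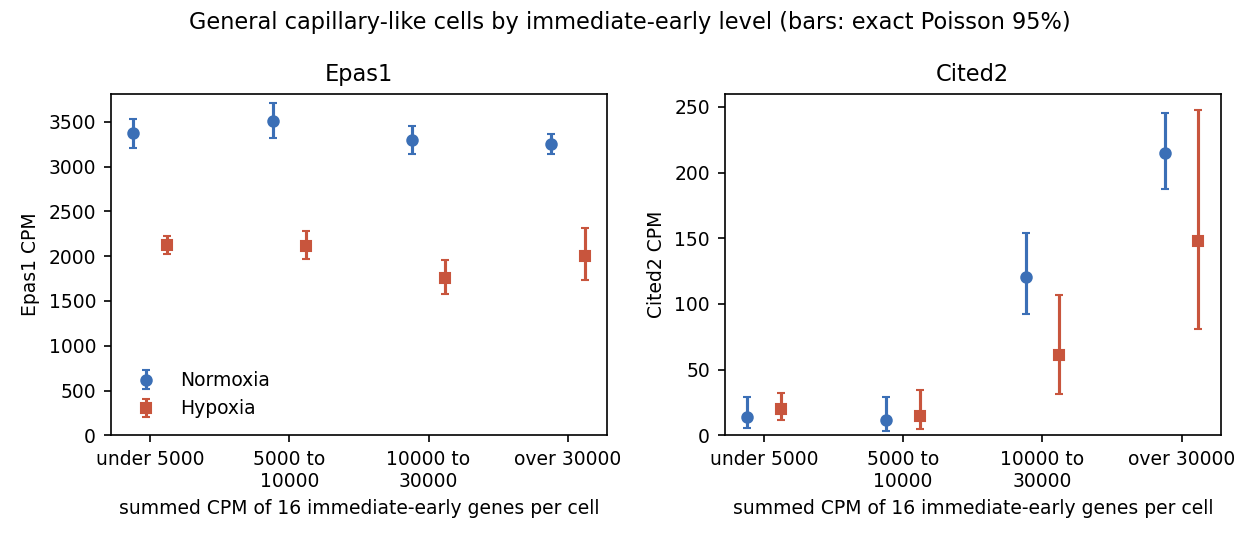
Levels of *Epas1* and *Cited2* (y axes, CPM) in general capillary-like cells binned by the summed level of 16 immediate-early genes (x axis, CPM of the cell), for each library with 95% counting intervals. *Cited2* is at 11.3 to 19.9 CPM below 10000 and at 61.3 to 215 CPM above it, while *Epas1* is lower in hypoxia in every bin.

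Counted by fold, 0 of the 8 members with at least 50 UMIs in EC-like cells were at least 1.5-fold higher in hypoxia, where 7.9% of the 8733 genes measured were, and 1 (*Cited2*) was at least 1.5-fold lower, where 9.57% were. Their median ratio was 1.24, against 1.02 over all genes. In general capillary-like cells 0 of 8 were higher (9.89% of 7742 genes) and 2, *Epas1* and *Cited2*, lower (9.71%). In aerocyte-like cells 3 members were measured (*Epas1*, *Egln1* and *Egln2*), and 0 were past 1.5-fold in either direction (8.22% of 3673 genes were higher and 10.8% lower).

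The other HIF partners and regulators gave few calls. Of 30 genes listed (chaperones, the rest of the VHL ligase, coactivators and others), 24 were measured in EC-like cells. Of these, 2 were higher and 2 lower, near the 7.9% and 9.57% over all genes measured, with a median ratio of 1.04. The HSP90 chaperone gene *Hsp90ab1*, whose product holds HIFα subunits stable, had 1668 CPM in normoxia and 2756 CPM in hypoxia (1.65, 1.59 to 1.71). *Siah2*, a ubiquitin ligase that acts on prolyl hydroxylases, had 49 and 43 UMIs (1.51, 0.981 to 2.33). The deacetylase *Sirt1* stood at 70.6 and 30.8 CPM (0.436, 0.326 to 0.576) and the coactivator *Ncoa1* at 48.3 and 29.8 CPM (0.618, 0.455 to 0.830). The elongin B gene *Elob*, part of the VHL ligase, was at 366 and 482 CPM (1.32, 1.21 to 1.43), the second HSP90 gene *Hsp90aa1* at 435 and 563 CPM (1.29, 1.20 to 1.40) and *Rack1*, a scaffold that competes with HSP90 for HIF1α, at 533 and 577 CPM (1.08, 1.01 to 1.16). In general capillary-like cells 2 of 23 were higher and 3 lower (9.89% and 9.71% of all genes measured there). In aerocyte-like cells 1 of 18 (*Hsp90aa1*, 1.62, 1.34 to 1.96) was higher and 0 lower (8.22% and 10.8% of all genes).

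The HIF target genes had more. Of 44 listed, 37 were measured in EC-like cells, with a median ratio of 1.47. Of these, 18 were at least 1.5-fold higher in hypoxia and 4 lower, against 7.9% and 9.57% of all genes measured. The chemokine gene *Cxcl12*, which is also among the general capillary and arterial markers used here, had 836 and 2792 CPM (3.34, 3.20 to 3.49). The mitophagy gene *Bnip3* had 19.2 and 116 CPM (6.02, 4.59 to 7.99). The vascular growth factor receptor genes *Kdr* (0.715, 0.675 to 0.758) and *Flt1* (0.883, 0.836 to 0.934) and the angiopoietin receptor gene *Tek* (0.768, 0.714 to 0.825) lay below 1 but within 1.5-fold. The chemokine receptor gene *Cxcr4* (82 and 15 UMIs, 0.315) and *Angpt2*, a ligand of the *Tek* receptor (80 and 13 UMIs, 0.280), were the lowest.

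Both capillary subtypes had targets well above 1, and whether the subtypes differ in them was not tested. Among 20 targets measured in aerocyte-like cells, 11 were higher and 0 lower (median 1.53), against 8.22% and 10.8% of all genes measured there. The glycolytic *Ldha* was at 83.7 and 488 CPM there (5.83, 4.30 to 7.98) and *Bnip3* at 32.6 and 276 CPM (8.46, 5.32 to 14.0). Among 34 measured in general capillary-like cells, 16 were higher and 7 lower (median 1.42), against 9.89% and 9.71% of all genes measured there. *Vegfa*, the growth factor gene that HIF classically induces, was among the lower targets at 639 and 393 CPM (0.616, 0.559 to 0.678). Of these lower targets only *Kdr* (0.608, 0.545 to 0.678) had enough UMIs to be measured in aerocyte-like cells (0.882, 0.820 to 0.948). The counts and medians of the capillary subtypes therefore rest on unlike sets of genes. The lists were chosen with earlier results of these libraries known.

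**Figure D5:**
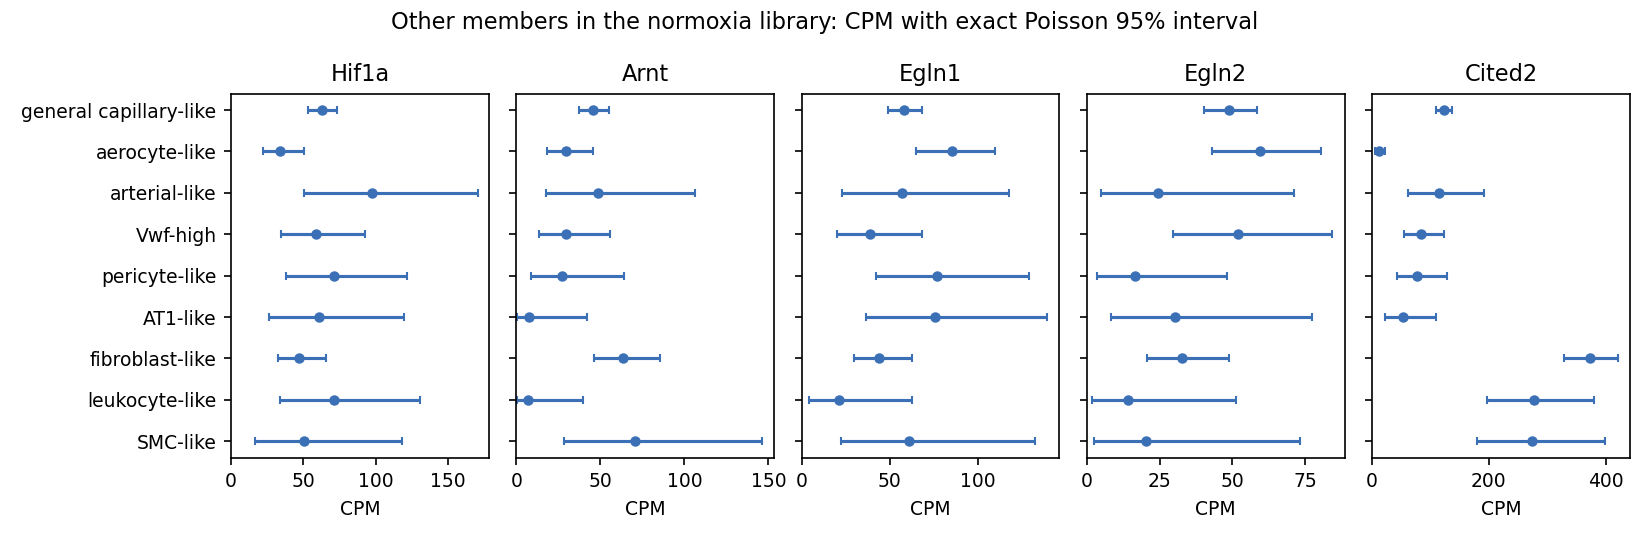
Levels of members (CPM) by cell group in the normoxia library. Of the groups drawn, the 4 named endothelial subtypes, pericyte-like and AT1-like cells have at least 1733 CPM of *Epas1*. *Cited2* is highest in fibroblast-like, leukocyte-like and SMC-like cells. *Hif3a* is at 0 outside fibroblast-like cells (4.25 CPM), and *Egln3* is at 0 outside SMC-like cells (20.3 CPM).

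Over 13 pseudobulks (cell groups by library, with at least 50000 UMIs each), the genes whose log level went most closely with each member were picked from 5767 candidates, as a description only, since the points share libraries and cell classes. The genes most like *Epas1* were *Notch4* (Pearson r = 0.981), *Prkch* (0.981) and *Hecw2* (0.976). For *Hif1a* they were *Ankrd12* (0.870), *Pdia6* (0.837) and *Hnrnph2* (0.811), and for *Arnt* *Rbm43* (0.833), *Fbxl7* (0.825) and *Sh3d19* (0.820). *Egln1* went with *Gatad1* (0.969), *Gabarapl2* (0.938) and *Ap2b1* (0.899), *Egln2* with *Elovl1* (0.889), *Lrg1* (0.873) and *Baiap2* (0.859), and *Cited2* with *Kdm7a* (0.848), *Gigyf2* (0.812) and *Cd44* (0.810).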

How the data were processed

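Lung cells of 1 normoxia and 1 hypoxia mouse library were analysed. Per the file headers the authors deposited raw UMI counts per gene and cell barcode made with Cell Ranger 6.1.2, and the submitters' processing notes name mm10. Each molecule was counted once by its identifier.

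Barcodes with 200 to 4000 genes and at most 5% mitochondrial counts were kept. Doublets were limited only by the gene maximum. Genes found in at least 3 cells were put on a log scale at 10000 UMIs per cell, and the 2000 most variable ones other than the 10 members, 30 components, 15 neighbours and Leiden clustering at resolution 2 gave 28 clusters (scanpy 1.11.5, anndata 0.12.19, igraph 0.11.9, numpy 2.4.6, scipy 1.17.1, Python 3.11.15). A cluster was named where at least 3 markers of a class were each found in at least 25% of its cells and its top 10 genes did not contradict the name. A cluster whose median UMI count, times 3, was under that of its libraries, with none of the markers among its top 10 genes, stayed unnamed as shallow. An EC-like cluster took the aerocyte, arterial or *Vwf*-high name whose markers lay highest, if by at least 1 on the log2 scale above the EC-like mean, otherwise the general capillary name if those markers lay above 0, and otherwise none.

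Levels are summed counts per 1000000 UMIs over the cells of a group and library, with exact 95% Poisson intervals. Ratios have exact conditional binomial intervals, and ratios of ratios have intervals from the log counts. The former were tested on simulated Poisson counts without variation between cells or libraries. That test covers counting error only. A count of 0 allows up to 3 counts. List genes needed 50 UMIs over both libraries and were counted past 1.5-fold. Thinning drew 1000 UMIs per cell.

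All members were named. Of each list the 4 genes with the most UMIs in EC-like cells and up to 2 each way past 1.5-fold, ranked by the interval bound nearest to 1, were named, with examples picked by the same rule within subtypes, and for each member with at least 300 UMIs the 3 most correlated genes. The members and lists were chosen with earlier results of these data known. The subtype score limits and the 16 immediate-early genes were set after seeing the data. The alternatives in the closing section changed the filters, resolution, scaling, naming and thresholds.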

Additional observations from a re-analysis of the deposited data

How the results depend on the processing

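No paired analysis was possible because there is only 1 library of each condition. Of 325 values recomputed under other settings, 292 stayed within the counting interval or 1.5 times the count, 31 moved beyond it and 2 reversed. A ratio counted as reversed only where the interval of its main value excluded 1. Among ratios whose main interval included 1, some also changed side. The lowest values were 0.945 for *Hif1an* and 0.963 for *Egln2* in EC-like cells. For *Egln1* they were 0.925 in general capillary-like and 0.843 in aerocyte-like cells. The *Epas1* ratio stayed below 1 in each alternative run, at 0.676 to 0.849 in EC-like, 0.587 to 0.699 in general capillary-like, 0.866 to 0.974 in aerocyte-like, 0.705 to 0.947 in arterial-like and 0.784 to 0.919 in *Vwf*-high cells. In EC-like cells it was 0.678 with 10% mitochondrial counts allowed, 0.677 at resolution 1, 0.676 scaled by the median gene ratio and 0.757 as a mean over cells. In general capillary-like cells it was 0.592 with at least 1000 UMIs per cell, 0.587 scaled by the median gene ratio and 0.679 as a mean over cells. The other changes that follow came with alternatives chosen after seeing the data. In clusters with at least 10% of their cells from each library, *Epas1* was at 0.849 in EC-like cells, 0.808 standardised and 0.699 in general capillary-like cells, and *Vhl* at 2.34 in EC-like cells. In cells under 10000 immediate-early CPM, *Cited2* reversed, to 1.22 (0.634 to 2.41) in EC-like and 1.43 in general capillary-like cells. *Egln1* moved to 7.94 in *Vwf*-high cells there, and to 0.843 in aerocyte-like cells as a mean over cells. The cause of each was not tested.

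At 2-fold, HIF targets counted 10 higher and 2 lower in EC-like, 10 higher and 3 lower in general capillary-like and 7 higher in aerocyte-like cells, and the partners 0 higher and 1 lower in EC-like, 1 higher in general capillary-like and 0 higher in aerocyte-like cells, where a minimum of 20 UMIs gave 2 lower. The shares over all genes at 2-fold and at a minimum of 20 UMIs were not counted, so these counts have no background beside them. Depth limits *Hif1an*, *Vhl*, *Arnt* outside general capillary-like cells and each value of arterial-like cells, which were too few in 2 of 14 alternatives.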
